A study of Mus musculus with 8 samples.

Results

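The genes described here make or break down prostaglandins, prostacyclin and thromboxane, the lipid signals that cells form from arachidonic acid. They were taken by symbol from a list of 10 genes: Ptgs1 and Ptgs2 (the cyclooxygenases), Ptgds and Hpgds (the prostaglandin D synthases), Ptges, Ptges2 and Ptges3 (prostaglandin E synthases), Ptgis (prostacyclin synthase), Tbxas1 (thromboxane synthase) and Hpgd (15-hydroxyprostaglandin dehydrogenase). A probe set was used where the array's annotation named 1 gene only, which left 8 of the 10 genes with 13 probe sets, out of 18194 genes with 34958 probe sets. Ptgs1 had no probe set of its own in the annotation used and is not analysed here. The probe sets of Ptges3 also named a related pseudogene, so Ptges3 is not analysed here either.

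RNA was measured in the cochleae of 8 normal CBA/CaJ mice, an inbred strain that keeps good hearing into age and serves as a standard in hearing research. All 8 mice formed 1 group, normal cochlea, with the ears of each mouse pooled on 1 Affymetrix Mouse 430 2.0 array. Every mouse received urethane at 300 mg/kg and was perfused through the heart with saline, and the outer bone was removed so that the spiral ligament, the organ of Corti and the modiolus were kept. The series therefore holds no contrast between groups: the questions asked are which of these genes gave signal in the cochlea, how far each differed between mice, and which genes and cell type markers varied with it. The age and sex of the mice are not given in the sources used here.

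In this pathway phospholipases free arachidonic acid from membranes, and the cyclooxygenases turn it into the unstable intermediate prostaglandin H, the common precursor of the whole family. Terminal synthases then convert prostaglandin H into prostaglandin D, prostaglandin E, prostacyclin or thromboxane, which act on G protein-coupled receptors. Prostaglandins are carried back into cells by a transporter and inactivated first by 15-hydroxyprostaglandin dehydrogenase. In the inner ear they are known mainly from studies of cochlear blood flow, inflammation and noise injury.

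Values are MAS5 signals, a linear measure of brightness in arbitrary units that the authors scaled to a common level on every array. The signal of a probe set also depends on its sequence, so signals are compared between mice for 1 probe set and not between genes. An array's background threshold was the 95th percentile of its signal over 134 probe sets of olfactory and vomeronasal receptors and of genes of unrelated organs, and it ranged from 37.0 to 55.3. A gene counted as detected when its brightest probe set was above this threshold on all 8 arrays. All 8 measured genes were detected, beside 11924 of 18194 genes in all (65.5%). Arrays correlated with each other at r between 0.945 and 0.960 on the log2 scale, and none held the same values as another. Mouse 1 stood apart: it was the highest mouse for 33.3% of the 11924 detected genes and the lowest for 23.7%, while each of the others was highest for 8.50% to 10.8%. Mouse 8 was lowest for 19.1%. Ptgs2, Ptges2 and Hpgd had mouse 1 at one end of their range, and their values without it are given below.

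The dissected tissue carried cochlear markers: all 5 markers of fibrocytes, the supporting cells of the spiral ligament, and 4 of 5 hair cell markers were detected, while the hair cell factor Pou4f3 was above the threshold on 0 arrays. Markers of other cells known to make these enzymes were present too, with all 8 macrophage markers, all 7 of the leptomeninges (the membranes around nervous tissue) and 5 of 6 of endothelium detected. Of 6 mast cell markers only Hdc was detected. The share detected over all genes was 65.5%. Since whole tissue was measured, fewer cells of a type and less RNA per cell cannot be told apart.

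**Figure D1:**
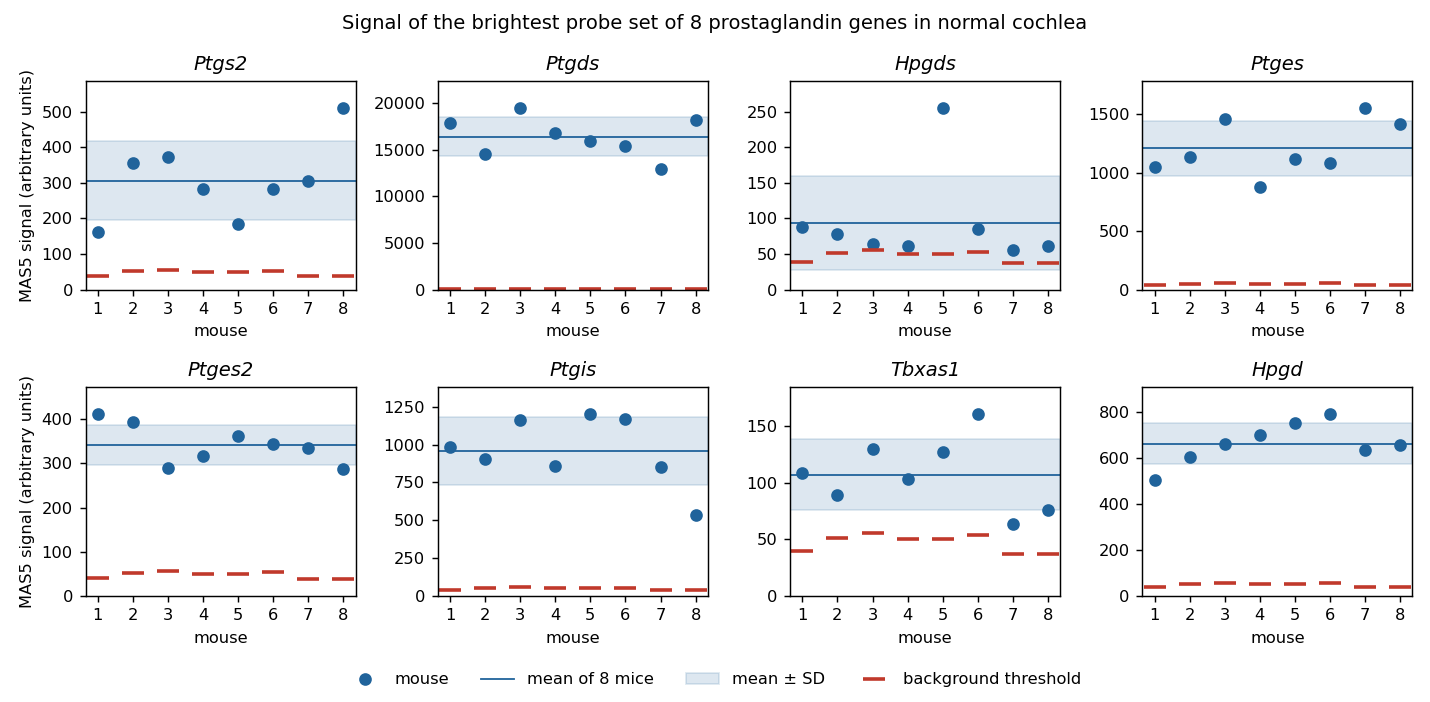
Signal (MAS5, arbitrary units, linear axes from 0) of the brightest probe set of each of the 8 genes in each of 8 mice. Points are mice, the line and band are the mean and SD of the 8 mice, and red dashes are the background threshold of each array. Ptgds stood at 285 times the threshold or more, Hpgds was far higher in mouse 5 than elsewhere, and Ptgis was lowest in mouse 8.

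Ptgs2, the inducible cyclooxygenase, gave a signal of 162.2 in the lowest mouse (mouse 1), a median of 293.7 and 509.5 in the highest (mouse 8). It averaged 306 ± 110 (SD, n = 8), and the highest mouse was 3.14-fold above the lowest. Mice 1 and 5 were low, at 162.2 and 183.2, and the other 6 lay between 281.4 and 509.5. Ptgs2 is an immediate early gene in many cells, switched on within minutes to hours of a stimulus. The SD of its log2 signal was 0.54, larger than that of 97.5% of the 11924 detected genes and of 96.1% of the 1957 detected genes whose mean signal was within 0.5 log2 units of its own. The median over all detected genes was 0.18. Without mouse 1 the SD of Ptgs2 was 0.45, and without mouse 8 it was 0.46. Its other probe set gave signals between 1.9 and 23.6, under the threshold on every array, and correlated with the brighter one at r = 0.15 over the 8 mice, so the spread of Ptgs2 rests on 1 probe set.

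Ptgds makes prostaglandin D and is also a secreted carrier of lipids and thyroid hormone, abundant in leptomeninges and cerebrospinal fluid. Its signal was 12954.9 in the lowest mouse (mouse 7), with a median of 16370.35 and a highest value of 19431.1 in mouse 3. The mean was 16376 ± 2107 (SD, n = 8), and the lowest ratio of signal to threshold on any array was 285. These signals came near the brightest of any probe set, which lay between 18735 and 29546.6 on the 8 arrays. The second probe set of Ptgds read 13655 ± 1352 and was likewise lowest in mouse 7, at 11279.9, but highest in mouse 1, at 15474.2.

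The 2 probe sets of Ptgds correlated at r = 0.90 and rho = 0.81 over 8 mice (exact permutation p = 0.0033 and 0.0218), and r was 0.92 without the 2 mice farthest from the median. After adjustment over the 4850 genes with 2 detected probe sets the permutation p was 0.0606, which did not pass 0.05. In all, 176 of those genes passed (3.63%), and so did 0 of the 3 prostaglandin genes that could be tested. The SD of log2 Ptgds was 0.19, near the median of all detected genes (percentile 52.1) but above that of 98.0% of the 51 detected genes of like signal. Relative to the mean log2 signal of the 100 brightest genes of each array, its SD was 0.08. The mice stood in the same order for Ptgds as for that mean, whose deviation from its average over the arrays was 0.13 in mouse 3 and -0.20 in mouse 7. The part of array brightness in the differences between mice for Ptgds was not tested.

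Hpgds, the hematopoietic prostaglandin D synthase of mast cells, macrophages and some T cells, was the most variable of the 8 genes. Mouse 5 read 254.6, against a range of 54.9 to 87.4 and a median of 64.6 in the other 7 mice, a ratio of 3.94. Its mean over all mice was 93.3 ± 66.3 (SD, n = 8) and its log2 SD was 0.71, above that of 99.1% of detected genes and of 98.8% of the 990 of like signal. Mouse 5 thus lay outside the range of the others, and without it the SD was 0.27. The signal was close to background, since the lowest ratio of signal to threshold was 1.17. With the 99th percentile of the background probe sets as the threshold, Hpgds was above it on 2 arrays only.

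Ptges, the inducible microsomal prostaglandin E synthase that works beside Ptgs2, read 873.2 in the lowest mouse (mouse 4), 1124.75 at the median and 1550.6 in the highest (mouse 7). Its mean was 1209 ± 236 (SD, n = 8) and its log2 SD was 0.28 (percentile 79.9). On the brightest of 3 probe sets mice 3, 7 and 8 were high, at 1412.1 to 1550.6, and the other 5 lay between 873.2 and 1134.7. The other probe sets did not follow this order. The second read 194 ± 28.4, lowest in mouse 7 at 163.3 and highest in mouse 1 at 238.8, and the third read 127 ± 21.7. The correlation of the 2 brighter ones was negative, with r = -0.66 and rho = -0.79 over the 8 mice (exact permutation p = 0.0751 and 0.0279, adjusted p for r = 0.266), and r was -0.43 without the 2 farthest mice. No direction between mice is therefore given for Ptges. What the 3 probe sets bind was not analysed here.

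Ptges2, a second membrane-associated prostaglandin E synthase, read 286.2 in the lowest mouse (mouse 8), 339.4 at the median and 411.2 in the highest (mouse 1). The mean was 342 ± 45.3 (SD, n = 8), and the log2 SD of 0.19 was near the median of all detected genes (percentile 52.3) and below that of most of the 2000 genes of like signal (percentile 39.4). It was among the steadier of the 8 genes.

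**Figure D2:**
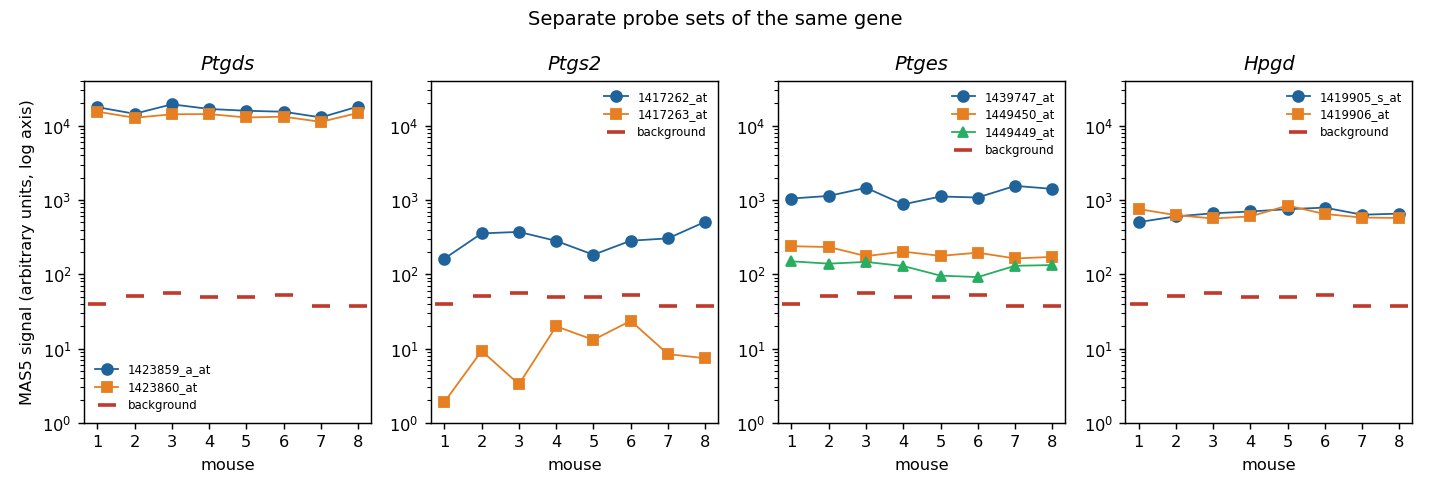
Signal (MAS5, arbitrary units, log axes) in each of 8 mice for the 4 genes read by more than 1 probe set, with lines joining the points of 1 probe set and no order among the mice. Red dashes are the background threshold of each array. The probe sets of Ptgds gave r = 0.90 and the 2 brighter ones of Ptges r = -0.66, and the second Ptgs2 probe set lay under the threshold on every array.

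Ptgis makes prostacyclin, which widens vessels and keeps platelets from clumping. It read 537.4 in the lowest mouse (mouse 8), 943.65 at the median and 1201.2 in the highest (mouse 5). The mean was 958 ± 223 (SD, n = 8) and the log2 SD was 0.38, above that of 92.3% of detected genes and of 95.9% of the 2227 genes of like signal. Mice 3, 5 and 6 lay between 1164.2 and 1201.2 and the other 5 between 537.4 and 983.5. Mouse 8 stood alone at the low end, the next lowest mouse being at 849.3, and without it the SD was 0.22.

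Tbxas1 makes thromboxane, which narrows vessels and activates platelets, and is found in platelets and macrophages. It read 63.6 in the lowest mouse (mouse 7), 105.55 at the median and 160.2 in the highest (mouse 6), with a mean of 107 ± 31.5 (SD, n = 8). The log2 SD was 0.44, above that of 95.2% of detected genes and of 87.4% of the 1361 of like signal. Mice 3, 5 and 6 were the 3 highest, as they were for Ptgis. The lowest ratio of signal to threshold was 1.72, and with the 99th percentile of the background probe sets as the threshold Tbxas1 was above it on 3 arrays.

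Hpgd carries out the first step of prostaglandin breakdown. It read 503.2 in the lowest mouse (mouse 1), 658.85 at the median and 789.6 in the highest (mouse 6), with a mean of 662 ± 89.2 (SD, n = 8) and a log2 SD of 0.20 (percentile 56.6). A second probe set gave a nearly equal mean, 649 ± 99.5, but placed mouse 1 second highest at 756.2. Over the 8 mice the correlation between them was r = -0.03 and rho = 0.12 (exact permutation p = 0.936 and 0.793, adjusted p for r = 0.969). Without the 2 mice farthest from the median r was 0.68, and without mouse 1 alone it was 0.57. The rank of mouse 1 for Hpgd thus depended on the probe set.

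Set side by side, the log2 SDs of the 8 genes had a median of 0.33, beside 0.18 over all detected genes. On their brightest probe sets all 8 genes had an SD above 0.18. An SD over 0.5 was found in 2 of the 8, Hpgds and Ptgs2 (25.0%), beside 372 of the 11924 detected genes (3.12%). It was 1 of the 8 without mouse 1 or 8 (Hpgds) or without mouse 5 (Ptgs2, at 0.51), beside 2.82%, 3.12% and 3.04% of all detected genes. With 32 added to the signal before the log, it was Hpgds alone, at 0.56, and Ptgs2 was at 0.48. Without mouse 1 the median SD was 0.35, beside 0.15 over all detected genes. Of the 8 genes 7 were then above 0.15, with Hpgd at 0.14 and Ptges2 at 0.17. With 1 mouse left out, between 6 (without mouse 3) and 8 of the genes were above the median over all detected genes. With the mean of a gene's probe sets the SD was 0.16 for Ptgds, 0.14 for Ptges and 0.14 for Hpgd. After quantile normalization it was 0.07 for Ptgds and 0.16 for Ptges2. The median of the 8 genes was 0.29 and 0.33 under these 2 settings, and that of all detected genes is not given for them. This is a description, since the spread between mice holds that of the assay as well, and Hpgds and Tbxas1 were read near background.

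The genes were also compared with each other across mice, in 28 pairs, with p-values adjusted over all detected genes for each gene. None of the 28 passed, 2 had an unadjusted exact permutation p under 0.05, and 13 had a positive r. The share of all detected genes under that p lay between 2.74% (with Ptges) and 27.53% (with Ptges2). Ptgis and Tbxas1, whose products oppose each other in vessels and platelets, correlated at r = 0.76 and rho = 0.88 over 8 mice (exact permutation p = 0.024 and 0.0072, adjusted p for r = 0.997), and r was 0.86 without the 2 mice farthest from the Ptgis median. Ptgs2 and Ptges2 correlated at r = -0.71 and rho = -0.69 (exact permutation p = 0.0454 and 0.0694, adjusted p for r = 0.291). That relation rested on mice 1 and 8, without which r was -0.29. Ptgs2 with Ptges, which are known to be induced together, gave r = 0.52 and rho = 0.71 (exact permutation p = 0.184 and 0.0576, adjusted p for r = 0.442), and r = 0.36 without mice 1 and 8. These values used the brightest Ptges probe set. The second one read 238.8 in mouse 1, where Ptgs2 was lowest, and 171.3 in mouse 8, where Ptgs2 was highest. No direction is therefore given for this pair. The 2 prostaglandin D synthases showed no relation that these mice could resolve, with r = -0.02 and rho = 0.05 (exact permutation p = 0.962 and 0.935, adjusted p for r = 0.9999), and r = -0.27 without mice 3 and 7.

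The genes most like each of the 8 were then found among the other 11923 detected genes, by Pearson's r over the 8 mice. The smallest p that an exact test of 8 mice allows is 2.48e-05. After adjustment over all genes, 13 genes passed for Ptgds (0.109%), 628 for Ptges2 (5.27%) and 0 for each of Hpgds, Ptgs2, Ptges, Ptgis, Tbxas1 and Hpgd. At an unadjusted exact permutation p under 0.05 the counts were 553 for Ptgds (4.64%), 3282 for Ptges2 (27.53%), 2038 for Ptgs2 (17.09%) and 1712 for Hpgd (14.36%), and between 327 (2.74%) and 520 (4.36%) for Ptges, Tbxas1, Ptgis and Hpgds. The counts after adjustment for Ptgds and Ptges2 depended on the scaling of the arrays.

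Of the 13 genes that passed with Ptgds, 12 had a positive r. The closest were Naca, a subunit of the complex that meets new proteins at the ribosome, Pebp1, a phospholipid-binding protein, and Apod, a secreted carrier of lipids like Ptgds itself. Apod read 17717.2 in mouse 3 and 12946.5 in mouse 7, its extremes, as for Ptgds. Its r with Ptgds was 0.99 (exact permutation p = 2.48e-05, adjusted p = 0.0329), the rank order of the mice was the same for both, and r was 0.98 without mice 3 and 7. Others were Slc12a2, the sodium-potassium-chloride carrier of the stria vascularis, Atp1b1, a subunit of the sodium pump, and Atp5a1, Atp5g3 and Cox7a2 of the mitochondrial respiratory chain and ATP synthase. After quantile normalization, which gives all arrays the same distribution, 0 genes passed with Ptgds and the r with Apod was 0.81, while that with Naca was 0.48. With 1 mouse left out r stayed between 0.992 and 0.998 for Naca and between 0.982 and 0.993 for Apod, but the adjustment could then pass a gene only if 48 or more reached the smallest p, and none passed.

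For Ptges2, 365 of the 628 genes had a positive r and 263 a negative one. The most alike were Tmem97, the sigma-2 receptor of the endoplasmic reticulum, Nudt1, which clears oxidized nucleotides, and Epg5, a factor of autophagy. Tmem97 read 433.3 in mouse 1 and 187.0 in mouse 8, the same extremes as Ptges2, and the same rank order of all mice, with r = 0.98 (exact permutation p = 2.48e-05, adjusted p = 0.0257). Without mice 1 and 8 its r was 0.99. The count passing was 462 after quantile normalization and 0 after scaling to the median of detected genes, where the r with Tmem97 was still 0.98. It was 0 without mouse 1, 2, 3, 4, 5 or 8, 668 without mouse 6 and 241 without mouse 7, where the smallest possible p is 0.000198 and at least 48 genes must reach it for any to pass. The r with Tmem97 was 0.98 without mouse 1. Mouse 1 was an extreme for many genes, as given above, and its part in the counts for Ptges2, Ptgs2 and Hpgd was not tested.

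Of the genes most like the other 6, none passed after adjustment. With Ptgs2 they were Zdhhc18, a palmitoyltransferase, Slc9a2, a sodium-proton exchanger, and Bcl2l12, at r between 0.95 and 0.97. Slc9a2, for example, read 659.5 in mouse 1 and 850.6 in mouse 8, the same extremes as Ptgs2 (r = 0.96, rho = 0.98, exact permutation p = 0.000124 for r, adjusted p = 0.264, r = 0.90 without mice 1 and 8). With the mean of each gene's probe sets in place of the brightest, r with Ptgs2 was 0.39 for Slc9a2 and 0.44 for Zdhhc18; the second Ptgs2 probe set lies under the threshold. With Ptges they were Veph1, Lats1, a kinase of the Hippo pathway, and 2810001G20Rik, at 0.32, 0.57 and 0.30 with the mean of probe sets against 0.90 to 0.95 with the brightest. With Hpgd they were Tmf1, a Golgi protein, Appbp2os and Adamts9, a secreted metalloprotease. Adamts9 read 195.0 in mouse 6 and 81.6 in mouse 1, as Hpgd did in its extremes (r = 0.96, rho = 0.98, exact permutation p = 0.000198 for r, adjusted p = 0.345, r = 0.88 without those mice). These likenesses rest on the brighter Hpgd probe set, which differs from the other one on mouse 1: with the mean of probe sets r was 0.14 for Tmf1, against 0.97, and 0.73 for Appbp2os, against 0.96.

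The high Hpgds of mouse 5 came with marked differences of other genes in that mouse. The genes most like Hpgds were Thrsp, a regulator of fat synthesis, and Pih1d2 and Ubxn10, which are linked to cilia. Thrsp read 1804.6 in mouse 5, against 214.5 to 464.9 in the other 7, at r = 0.99 and rho = 0.95 with Hpgds (exact permutation p = 0.000347 for r, adjusted p = 0.862), and r was 0.93 without mice 5 and 7. For Ubxn10, at 1155.5 in mouse 5 against 105.3 to 163.8 elsewhere, r with Hpgds was 0.97 and rho 0.76 (exact permutation p = 0.0048 for r, adjusted p = 0.884). Without those mice r was 0.69.

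Fat cell and ciliated cell genes were looked at because mouse 5 stood out for Thrsp, Pih1d2 and Ubxn10, and those genes are in the lists, so the values below are a description of mouse 5 and no test. Of 8 measured fat cell genes 3 were detected (37.5%), and of 10 ciliated cell genes 5 (50.0%), beside 65.5% of all genes. Adipoq and Tekt1 were above the threshold on 7 arrays, Cidec, Pck1, Foxj1, Tekt4, Dnah5 and Spag6l in mouse 5 alone, and Lep and Retn on 0 arrays. Fabp4, a fatty acid carrier of fat cells, read 5517.4 in mouse 5 and 88.6 to 914.2 in the rest, and the summed signal of the fat cell genes was 10501 in mouse 5 and between 681 and 1993 elsewhere. Spag6l, a protein of the ciliary axoneme, read 557.5 in mouse 5 and 1.6 to 29.0 elsewhere, where it was above the threshold on 0 arrays. The summed signal of the ciliated cell genes was 6874 in mouse 5 and 1441 to 1708 elsewhere.

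Mast cells and macrophages are the known sources of Hpgds. Hdc, the histamine-forming enzyme and 1 of the 6 mast cell markers, read 1108.4 in mouse 5 and 65.1 to 142.2 in the rest, a ratio of 11.2. Cpa3, Mcpt4, Cma1 and Ms4a2, which define mast cells more closely, were above the threshold on 0 arrays, and Tpsb2 on 1, that of mouse 5, at 51.1. The summed signal of all 6 was 1281.5 in mouse 5 and 119.8 to 218.5 in the rest, mostly from Hdc. Without Hdc it was 173.1 in mouse 5 and 24.4 to 114.5 in the rest. All 6 mast cell markers were highest in mouse 5, where 2 of them were above the threshold. Of the 8 macrophage markers 2 were highest in mouse 5, and the correlation of Hpgds with their mean deviation was r = 0.54 and rho = 0.76 (exact permutation p = 0.145 and 0.0368, adjusted p for r = 0.979), and r was 0.47 without the 2 farthest mice. The part of these cells in the Hpgds signal of mouse 5 was not tested. Of the 8 prostaglandin genes 2 were highest in mouse 5, Hpgds and Ptgis, and Ptgis by little, at 1201.2 against 1169.4 in the next mouse. That is 25.0% of these genes, as of the macrophage markers, beside 8.5% of all detected genes.

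**Figure D3:**
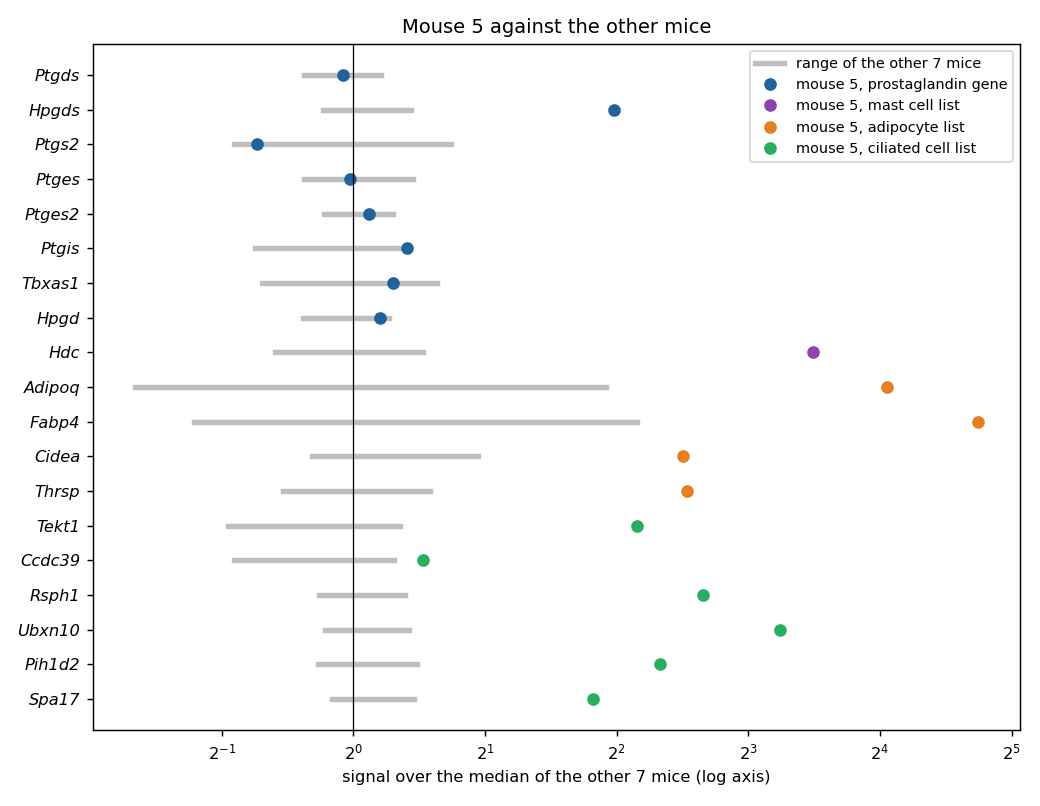
Signal in mouse 5 (points) over the median of the other 7 mice, with the range of those 7 mice as grey bars (log2-spaced axis), for the 8 prostaglandin genes and for Hdc and those genes of the fat cell and ciliated cell lists that were above the threshold on 7 or 8 arrays. Hpgds was at 3.94 times the median and Hdc at 11.2 times, whereas the other 7 prostaglandin genes were between 0.60 and 1.33 times.

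Tbxas1 and Ptgis were both high in mice 3, 5 and 6. Some genes of red cells, platelets and bone had their 3 highest signals in these mice, among them Slc4a1, Pf4 and Col1a1, and others did not. The gene most like Tbxas1 was Hmgb2, a chromatin protein of dividing cells, which read 1189.8 in mouse 6 and 421.1 in mouse 7, with the mice in the same rank order as for Tbxas1 and r = 0.99 (exact permutation p = 2.48e-05, adjusted p = 0.296), and r was 0.98 without those mice. Vwf, the clotting factor of endothelium and megakaryocytes, and Chek1, a kinase of the cell cycle, came next at r = 0.97 and 0.96. Each of the 3 was highest in mouse 6 and lowest in mouse 7, as was Tbxas1.

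Slc4a1, the anion exchanger of red cells, read 1691.8, 1078.0 and 1783.7 in mice 3, 5 and 6 and 38.4 in mouse 7. Over 8 mice Tbxas1 correlated with the mean deviation of the 2 detected red cell genes at r = 0.84 and rho = 0.86 (exact permutation p = 0.0086 and 0.0107, adjusted p for r = 0.816), and r was 0.96 without the 2 farthest mice. Pf4, a platelet chemokine, read 1343.8, 1237.9 and 1638.2 in mice 3, 5 and 6 and 241.4 in mouse 1, the lowest. Ppbp, another platelet gene, read 704.4 in mouse 5 and 969.3 in mouse 4, Alas2 of red cells read 230.3 in mouse 5 and 336.9 in mouse 4, and Itga2b of platelets was lowest in mouse 5, at 53.9. The platelet score, from 2 genes, gave r = 0.69 and rho = 0.71 with Tbxas1 (exact permutation p = 0.0605 and 0.0576, adjusted p for r = 0.399), and r = 0.87 without the 2 farthest mice. Macrophage markers gave r = 0.75 and rho = 0.81 with Tbxas1 (exact permutation p = 0.0301 and 0.0218, adjusted p for r = 0.979), but r = 0.41 without the 2 mice farthest from the median of the score. The 4 bone markers gave r = 0.81 and rho = 0.71 with Tbxas1 (exact permutation p = 0.0161 and 0.0576, adjusted p for r = 0.942), and r = 0.80 without the 2 farthest mice. The 4 detected hair cell markers gave r = -0.81 and rho = -0.90 (exact permutation p = 0.0168 and 0.0046), with r = -0.82 without the 2 farthest mice, and this did not pass after adjustment either.

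Ptgis was most like Gask1b, Sla, an adaptor of blood cells, and Npnt, a matrix protein, at r = 0.96 for each. Npnt read 2083.7 in mouse 6 and 1600.5 in mouse 8 (rho = 0.88, exact permutation p = 0.00062 for r, adjusted p = 0.427, r = 0.96 without mice 5 and 8). With the mean deviation of the 8 macrophage markers Ptgis had r = 0.93 and rho = 0.95 (exact permutation p = 0.0013 and 0.0011, adjusted p for r = 0.863), and r = 0.77 without the 2 farthest mice. With the 4 bone markers Ptgis had r = 0.86 and rho = 0.81 (exact permutation p = 0.0031 and 0.0218, adjusted p for r = 0.779). Without the 2 mice farthest from the median of the bone score r was 0.80. Col1a1, the main collagen of bone, read 2234.1, 3335.0 and 2867.4 in mice 3, 5 and 6 and 408.6 in mouse 8.

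Vessel markers gave unlike results for Ptgis. With 6 smooth muscle and pericyte markers it had r = 0.73 and rho = 0.83 (exact permutation p = 0.0435 and 0.0154, adjusted p for r = 0.9998), and r = 0.87 without the 2 farthest mice. With 5 endothelial markers it had r = -0.02 and rho = 0.14 (exact permutation p = 0.959 and 0.752, adjusted p for r = 0.9998), and r = -0.05 without the 2 farthest mice. The difference between these correlations was not tested, nor was the part of any of these cells in the signal of Ptgis or Tbxas1.

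**Figure D4:**
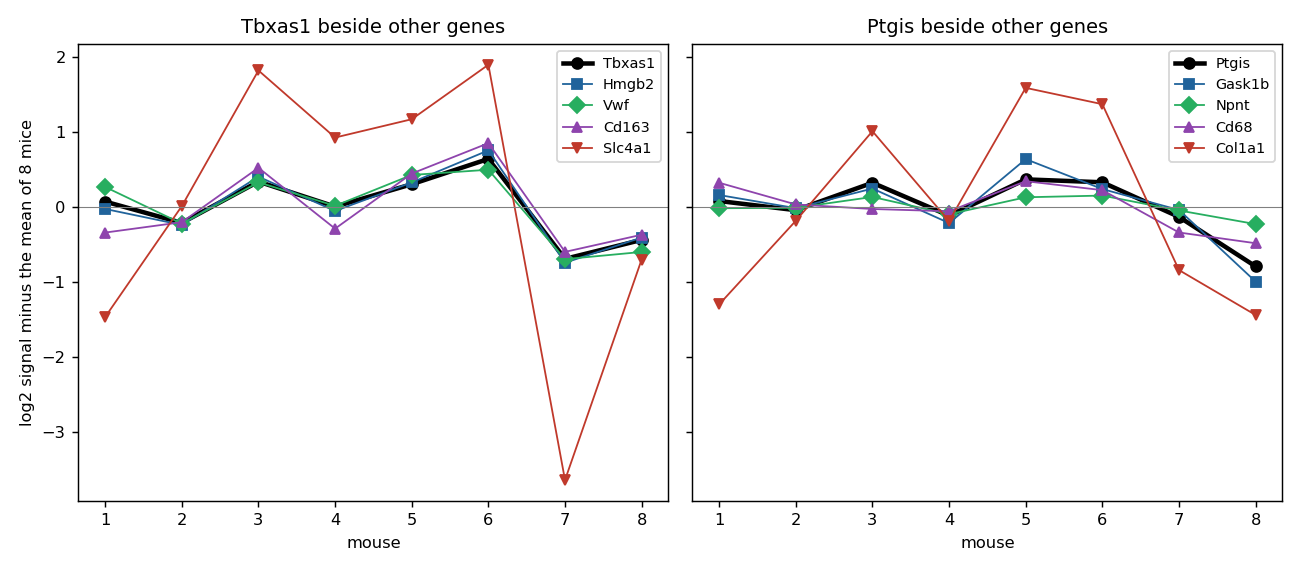
Log2 signal of Tbxas1 (left) and Ptgis (right) in each mouse, minus the mean of the 8 mice, beside genes that varied with them (lines join the points of 1 gene, and the mice have no order). Tbxas1, Hmgb2 and Slc4a1 were high in mice 3 and 6 and low in mouse 7, and Ptgis, Gask1b and Col1a1 were high in mice 3, 5 and 6 and low in mouse 8.

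In all, 14 marker scores were set against the 8 genes, which gave 112 pairs. After adjustment over all detected genes 0 pairs passed, and 11 had an unadjusted exact permutation p under 0.05. For these 11, the share of detected genes with as small a p for the same score was also taken. It lay between 0.134% (Ptgis, macrophage score) and 9.07% (Ptges, Schwann cell score). Among all 11924 detected genes 7 passed with the neuron score (0.0587%) and 0 with each of the other scores. Ptgds had r = 0.90 and rho = 0.86 with the 5 fibrocyte markers (exact permutation p = 0.0028 and 0.0107, adjusted p for r = 0.291), and r = 0.95 without the 2 farthest mice. Coch, the abundant secreted protein of these cells, read 15615.7 in mouse 3 and 11569.7 in mouse 7, the same extremes as the brighter Ptgds probe set. All 5 fibrocyte markers were lowest in mouse 7, but 3 were highest in mouse 1 and 2 in mouse 3. These markers are themselves among the brightest probe sets, and after quantile normalization r was -0.47. Ptgds with the 7 markers of leptomeninges, a known site of its synthesis, gave r = 0.63 and rho = 0.71 (exact permutation p = 0.0963 and 0.0576, adjusted p for r = 0.908), and r = 0.50 without the 2 farthest mice. Slc6a13, a transporter of those membranes, was highest in mouse 1 at 759.3 and lowest in mouse 5 at 233.6. The brighter Ptgds probe set had its extremes in mice 3 and 7. The other Ptgds probe set was highest in mouse 1, at 15474.2, as were all 7 leptomeninges markers, and lowest in mouse 7.

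Ptgs2 was set against 5 detected immediate early genes, which included Fos and Egr1. Fos read between 316.0 and 847.6 in the 8 mice and Egr1 between 1703.8 and 3164.1. The correlation of Ptgs2 with their mean deviation was r = 0.47 and rho = 0.55 (exact permutation p = 0.232 and 0.171, adjusted p for r = 0.9998), and r = 0.31 without the 2 farthest mice. A shared change of Ptgs2 with this group was thus not resolved by 8 mice.

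Further genes of the pathway were read in the same way. Of 10 receptor genes, counting Ptgfrn, a membrane protein that binds beside the prostaglandin F receptor and lowers its activity, 4 were detected (40.0%, beside 65.5% of all genes). Ptger3 and Ptger4, receptors of prostaglandin E, read 2225 ± 217 and 1050 ± 157 (SD, n = 8), and Ptgir, the prostacyclin receptor, read 154 ± 22.7. Ptgfrn read 1426 ± 150.3. The remaining 6 were above the threshold on 0 arrays: Ptgdr and Ptgdr2 (prostaglandin D), Ptger1 and Ptger2 (prostaglandin E), Ptgfr (prostaglandin F) and Tbxa2r (thromboxane). Their highest signals lay between 17.3 for Ptgdr2 and 42.6 for Ptgdr. So the synthases of prostaglandin D were detected and both its receptors were not, and likewise for thromboxane, while prostaglandin E and prostacyclin each had a detected synthase and a detected receptor. Hpgds and Tbxas1 were themselves near background. With the 99th percentile of the background probe sets as the threshold they were above it on 2 and 3 arrays, and 3 of the receptor genes were detected. A signal under the threshold does not show that a receptor is absent. When genes with a second probe set were read by it, 2 of the 10 were detected.

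Of 21 genes that free arachidonic acid or put it back into membranes, 14 were detected (66.7%, near the 65.5% of all genes). Among those named by the rule of highest signal were Plaat3, an acyltransferase and phospholipase (7710 ± 934), Acsl4, which activates arachidonic acid (3958 ± 712), and Mboat7, which esterifies it (3042 ± 446). Pla2g2e, a secreted phospholipase, was the most variable of those detected, between 123.9 and 251.1 (log2 SD 0.32). Pla2g2a, Pla2g2f, Pla2g10 and Pla2g1b, all secreted phospholipases, were above the threshold on 0 arrays. Their highest signals lay between 17.5 for Pla2g2a and 30.0 for Pla2g2f.

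All 5 transport genes were detected, beside 65.5% of all genes. Slco2a1, the prostaglandin transporter that takes prostaglandins up for breakdown by Hpgd, read 401 ± 38.7, and Abcc4, which exports them, read 406 ± 68.2. Slco3a1 read 1082 ± 147, Abcc1 378 ± 77.7 and Slco4a1 73.2 ± 19.9. Of 8 reductases of prostaglandins and related compounds 6 were detected (75.0%, beside 65.5% of all genes). Ptgr2 read 2373 ± 154 and Cbr1 2265 ± 201, with log2 SDs of 0.09 and 0.13, and Prxl2b, a prostamide and prostaglandin F synthase, read 1272 ± 198. Akr1b8 had the largest log2 SD of the 6 detected (0.25), and Akr1c18 was above the threshold on 0 arrays, with signals of 1.9 to 5.9.

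Of 13 genes listed for the leukotriene and lipoxygenase branches, which use the same arachidonic acid, 6 were detected (46.2%, beside 65.5% of all genes). Ephx1 (4433 ± 391), Lta4h (823 ± 86.9) and Alox12 (456 ± 99.99) were among them, and Dpep1, which trims leukotrienes, had the largest log2 SD of the 6 detected (0.35). Ephx1 and Ephx2, both detected, are epoxide hydrolases and belong to neither branch. Alox5, which starts leukotriene synthesis, and Ltc4s, Ggt5, Alox12b, Alox15 and Alox8 were above the threshold on 0 arrays, while Alox5ap, the partner protein of Alox5, read 180 ± 38.2.

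**Figure D5:**
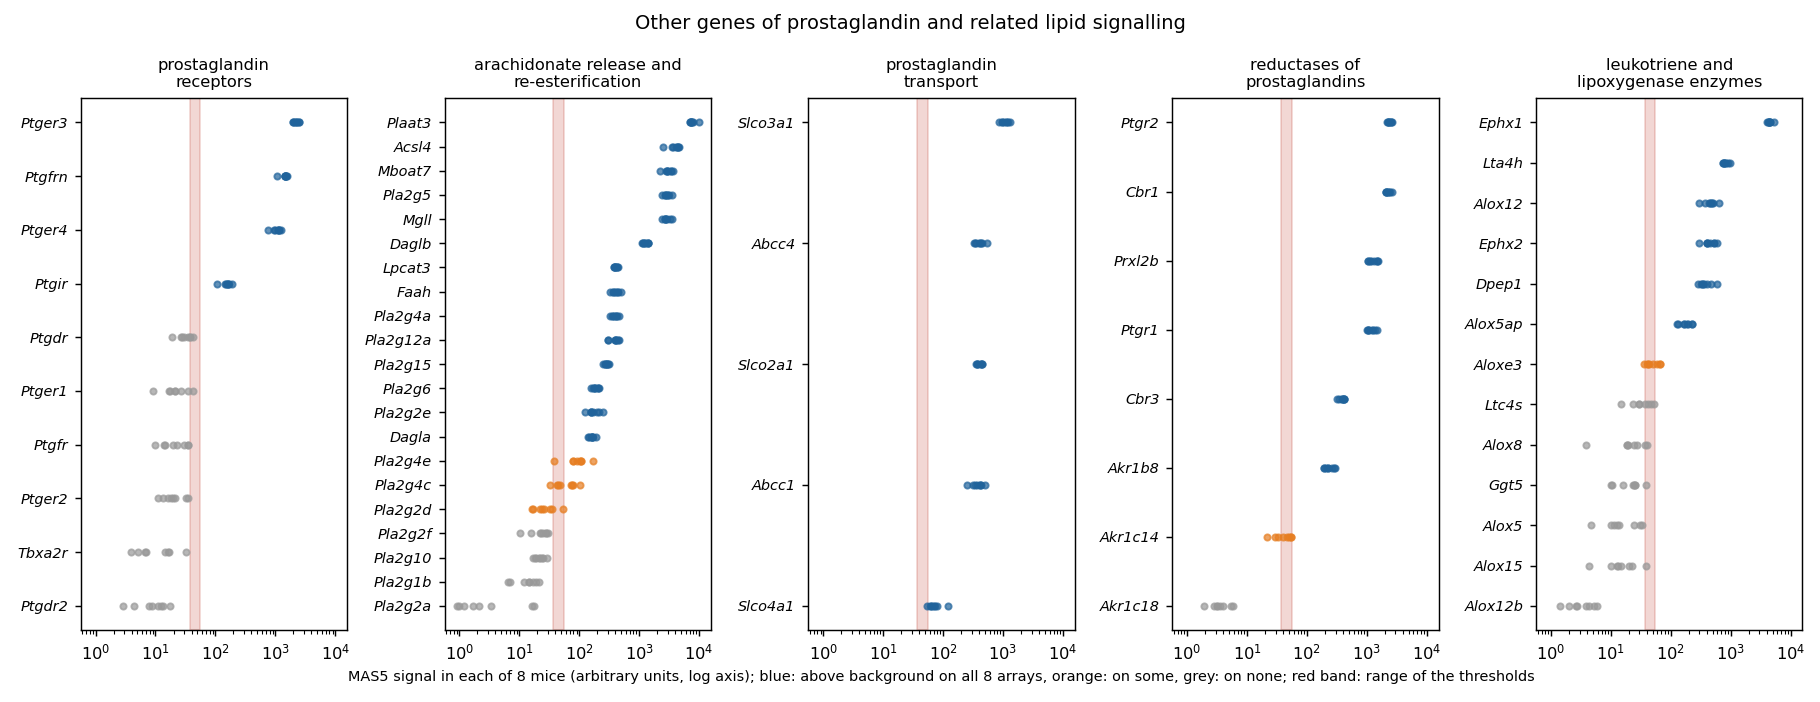
Signal (MAS5, arbitrary units, log axis) in each of 8 mice for the measured genes of 5 related lists. Each point is a mouse, blue genes were above the threshold on all 8 arrays, orange on some and grey on none, and the red band is the range of the thresholds, 37.0 to 55.3. Ptger3, Ptger4 and Ptgir lay above the band and 6 of the receptor genes in or below it.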

How the data were processed

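Each probe set has 1 deposited value per array, a linear intensity known as the MAS5 signal. MAS5 is named in the submitters' processing notes, without a version. The authors brought the arrays to a common level: on all 8, the deposited intensities averaged 500.0 after leaving out 2% at either end. RNA came from a TRIZOL and spin column extraction and was amplified and labelled with biotin by Nugen's Ovation kit, per the labels' protocols. No detection calls were used and 0 other columns of samples were present. Control probe sets gave 3'/5' ratios of 1.39 to 1.54 for Gapdh and 1.86 to 2.23 for actin. No scan dates or batches are given, so batches were not analysed here.

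Of 45101 probe sets the annotation named 1 gene for 34958, several for 932 and none for 9211. Only the first kind was used. No genome build is named, so no coordinates are given, and no probe or protein sequences were used here. Where a gene had several probe sets, the one of highest mean signal stood for it (_x_at only where there was no other), as log2 of the signal with values under 1 set to 1. The spread of a gene was the SD of log2 signal over the mice.

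Correlations were tested by exact permutation over all 40320 pairings of the mice, two-sided, with Benjamini-Hochberg adjustment over all detected genes for each gene or score, or over all genes with 2 detected probe sets, and 0.05 as the threshold. A score was the mean deviation of a list's detected markers; the mast cell and oligodendrocyte lists had 1 detected marker each and gave none. Computation used numpy 2.4.6 and scipy 1.17.1 under Python 3.11.15, with pandas 2.3.3 for tables and matplotlib 3.10.9 for plots. The tests were also run on simulated data, in which genes varied independently except those set to correlate. Such data cannot show how the adjusted counts behave where many genes vary together.

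The genes and lists were chosen with earlier results of these data known. The genes named are all 10 of the list, all measured receptors and transporters, the 3 detected genes of highest signal, the most variable detected gene and the genes above the threshold on 0 arrays of the other pathway lists, the 3 genes most like each of the 8, and leading markers. Alox5ap, Ppbp, Hbb-b2, Hdc, Tpsb2, Cma1, Ms4a2, Pou4f3, the genes that passed with Ptgds beyond the closest 3, and the fat cell and ciliated cell genes are outside this rule and were named after their values were seen. The alternatives were quantile normalization, scaling to the same median, log2 of the signal plus 32, other thresholds and background probe sets, other probe sets per gene, rank correlation, the median absolute deviation, and leaving out mice. A comparison with the 100 brightest genes was added after seeing the data. Per the labels each of the 8 arrays holds a different mouse, so mice are the units of every p-value, and assay error is part of any difference between mice.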

Additional observations from a re-analysis of the deposited data

Results flagged for a closer look

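Of the 13 probe sets of the prostaglandin genes, 2 had 1 mouse far from the rest by the gap between the extreme mouse and its neighbour, divided by the whole range on the log2 scale and set against Dixon's critical value. Hpgds in mouse 5 read 254.6, with a ratio of 0.70, and Ptgis in mouse 8 read 537.4, with a ratio of 0.57. Chance alone marks about 1 in 20 groups in normal data, but on these arrays 4212 of the 34958 probe sets naming 1 gene (12.05%) had such a mouse, so 2 of 13 (15.38%) is near the share of all. Hpgds has 1 probe set and so has Ptgis, so neither value has a second reading in the same mouse.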

How the results depend on the processing

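No paired analysis was possible because the labels give 1 group, so no replicate numbers are shared between groups. The number of prostaglandin genes whose probe sets agreed was 0 as reported and 1 after scaling to the same median (Ptgds, r = 0.94, adjusted permutation p = 0.0231). The correlations of the 8 genes with other genes that passed numbered 641 in all as reported, 462 after quantile normalization, 660 with 32 added, 42 after scaling to the same median, 120 with the mean of a gene's probe sets, 0 with rank correlation, 0 without the 2 farthest mice, and 0 to 668 when 1 mouse was left out. With 7 mice 48 genes, and with 6 mice 332, must reach the smallest p before any can pass, so fewer mice can lower these counts by construction; without the 2 farthest mice r was still 0.98 to 0.99 for the 3 genes most like Ptgds and 0.96 to 0.99 for those most like Ptges2. Receptor genes detected were 4 as reported and 2 with the second probe set. The sign of r turned for the probe sets of Ptgds under quantile normalization (-0.27), for Ptgds with the fibrocyte score under it (-0.47), for Ptges with the Schwann cell score under the mean of probe sets (0.0383, against -0.72 as reported), and for the probe sets of Hpgd under quantile normalization (0.0023), scaling to the same median (0.0401), and without mouse 1 (0.57) or mouse 4 (0.0043), with -0.55 to 0.57 over all mice left out in turn. Quantile normalization and scaling to the median change how arrays are levelled; the cause was not tested otherwise. With the second probe set Ptgs2 was above the threshold on 0 arrays. The spread of Ptges was 0.14 with the mean of its 3 probe sets and that of Ptgds 0.07 after quantile normalization. The median spread of the 8 genes lay between 0.25 and 0.36 with 1 mouse left out. Signal near background limits Hpgds and Tbxas1, and 8 arrays limit every correlation.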

Other observations

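Mouse 7 was lowest for all 4 red cell genes, all 5 neutrophil genes and all 5 fibrocyte markers measured. Of the 8 prostaglandin genes it was lowest for 3, Ptgds, Tbxas1 and Hpgds. It was lowest for 0 of 4 platelet genes and for 8.17% of all detected genes. Slc4a1 read 38.4 there, against a highest value of 1783.7 in mouse 6, and the hemoglobin gene Hbb-b2 read 1254.3 there, against 9511.9 in mouse 6. Ppbp, a platelet chemokine, was above the threshold on 5 of 8 arrays, although every mouse was perfused with saline. It read 16.2 in mouse 7, 15.3 in mouse 1, its lowest, and 1297.5 in mouse 6. Hpgds was lowest in mouse 7 too, at 54.9, near background and close to 60.5 in mouse 8, but 85.0 in mouse 6 was only the third highest of its values.

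Leptomeningeal markers had a median log2 SD of 0.49 and the 4 detected melanocyte markers a median of 0.16, beside 0.18 over all detected genes.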
